A study of Mus musculus with 6 samples.

Results

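RNA polymerase II and the general transcription factors form the machinery that starts transcription of the protein-coding genes in the nucleus. Their genes were taken from the deposited table by symbol, as *Polr2a* to *Polr2m*, *Tbp*, the *Taf* genes with a number and at most one letter from a to d, the genes *Gtf2a*, *Gtf2b*, *Gtf2e*, *Gtf2f* and *Gtf2h* with their suffixes, *Cdk7*, *Ccnh*, *Mnat1*, *Ercc2* and *Ercc3*. This gave 52 of the 55364 genes listed, of which 13 are *Polr2* genes, 21 are *Tbp* and *Taf* genes, and 18 are other general factors. The *Taf* symbols also cover *Taf1a* to *Taf1d*, whose products belong to the RNA polymerase I factor SL1, and *Taf15*, which encodes an RNA-binding protein of the FET family found in part of TFIID. Zygotes from in vitro fertilization of BDF1 (C57BL/6N × DBA/2) oocytes, from mothers 8 to 12 weeks old, with BDF1 sperm, from fathers 10 to 12 weeks old, were injected with siRNA 2 to 3 h after insemination and cultured in KSOM. The control KD group received a control siRNA, whose identity is not given in the sources used here, and the *Yy1* KD group an siRNA against *Yy1*. Morulae were collected 64 h after insemination, and each of the 3 libraries per group was made from the total RNA of 10 pooled morulae, so that no library stands for a single embryo. The question addressed here is how the transcripts of this machinery stood in morulae that had developed with little *Yy1*, which encodes a zinc finger transcription factor.

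TFIID, made of TBP and its associated factors (TAFs), recognizes the core promoter, and TFIIA and TFIIB stabilize it there. RNA polymerase II then arrives with TFIIF, and TFIIE and TFIIH follow. TFIIH opens the DNA through its subunit ERCC3, while the helicase ERCC2 is needed for its role in DNA repair, and its kinase module of CDK7, cyclin H and MNAT1 phosphorylates the long C-terminal tail of POLR2A as the polymerase leaves the promoter. In the mouse embryo, products inherited from the oocyte give way to products of the embryo's own genome.

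*Yy1*, the target of the siRNA, was at 96.0, 100.2 and 89.8 TPM (transcripts per 1000000, a length-corrected share of the library) in control KD replicates 1 to 3 and at 8.73, 8.90 and 8.32 TPM in *Yy1* KD replicates 1 to 3, which matches the labels. The libraries held between 11793509 and 24417789 read pairs on genes, recovered from TPM and exon length. All 9 preimplantation markers looked at, among them *Pou5f1*, *Cdx2* and *Krt8*, were present, with single values of at least 4.02 TPM and sums of 1805 to 2115 TPM in control KD and 1538 to 1839 TPM in *Yy1* KD. Of 10 cumulus and granulosa cell genes, 5, among them *Fshr* and *Cyp19a1*, were at 0 in all libraries and 1 (*Amhr2*) had a mean of at least 5 TPM, and the summed level of the list was 8.77 to 11.1 TPM in control KD and 9.31 to 10.6 TPM in *Yy1* KD. The 4 sperm genes together stayed at or below 2.26 TPM in every library. The 6 oocyte genes had sums of 46.5 to 61.9 TPM in control KD and of 48.5 to 64.8 TPM in *Yy1* KD. For the 5 genes of the 2-cell stage the sums were 7.14 to 18.4 TPM and 7.18 to 31.3 TPM. The lowest limma adjusted p among tested genes of these lists was 0.0942, for *Sox2*, which was at 8.73, 9.93 and 14.3 TPM in control KD and at 7.03, 5.75 and 4.02 TPM in *Yy1* KD without overlap (log2 fold change -0.86). *Cdh1* gave -0.80 with overlapping groups (limma adjusted p = 0.125). The part of these marker levels in the results was not tested. Since the embryos were pooled, fewer cells with a transcript and less of it per cell cannot be told apart, and TPM gives a share of the library and not an amount per embryo.

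Most of the machinery was at a similar level in both groups. Of these genes 50 reached 1 TPM in 3 or more of the 6 libraries and were tested, and 2 of them were downregulated in *Yy1* KD morulae (*Taf2* and *Taf15*) and 4 were upregulated (*Taf5*, *Taf1a*, *Gtf2f1* and *Mnat1*). None of the 13 *Polr2* genes was called, against 4 of the 20 *Tbp* and *Taf* genes tested and 2 of the 17 other factors tested. Calls were made by limma on log2(TPM + 1) where the Benjamini-Hochberg adjusted p, taken over 17353 genes, was below 0.05. Over all of them 6.11% were called, 4.2% as lower and 1.92% as higher. The share of the tested members was 12%, and among genes with a mean of at least 20 TPM, where the spread is smaller, it was 13.6% of 44 members against 10.4% of all genes (6.85% lower and 3.55% higher). These shares are close enough that the count by itself says little about this machinery.

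The sizes of the changes were also modest. The median log2 fold change was -0.02 over the 50 members and -0.02 over all genes tested, with 24 members higher and 26 lower in *Yy1* KD. It was -0.02 for the *Polr2* genes, -0.00446 for the *Tbp* and *Taf* genes and -0.01 for the other factors. The estimates of 36 of the 50 members were within 0.25 of 0 on the log2 scale. So were 8416 of all 17353 genes tested and 3357 of the 5720 with a mean of at least 20 TPM. A change of 1 or more was seen in 0 members, in 938 of all genes tested and in 113 of those 5720. For 15 members (30.0%) the 3 control KD values did not overlap the 3 *Yy1* KD values, beside 30.1% of all genes tested and 39% of those with a mean of at least 20 TPM. Summed over all members, control KD libraries held between 3286 and 3519 TPM and *Yy1* KD libraries between 3442 and 3629 TPM, which overlap. By class, the sums overlapped for the *Polr2* genes (1164 to 1368 TPM against 1236 to 1316 TPM) and for the *Tbp* and *Taf* genes (923 to 1009 TPM against 999 to 1033 TPM). For the other factors they did not overlap (1122 to 1166 TPM against 1206.5 to 1294 TPM), and these sums were not tested. *Gtf2f1*, the gene of this class with the highest level, weighs heavily on them. Its mean was 250.02 TPM for control KD and 355 TPM for *Yy1* KD. Of the 17 genes tested in this class, 8 had higher and 9 lower estimates, so the sums do not show a rise of the class as a whole.

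**Figure D1:**
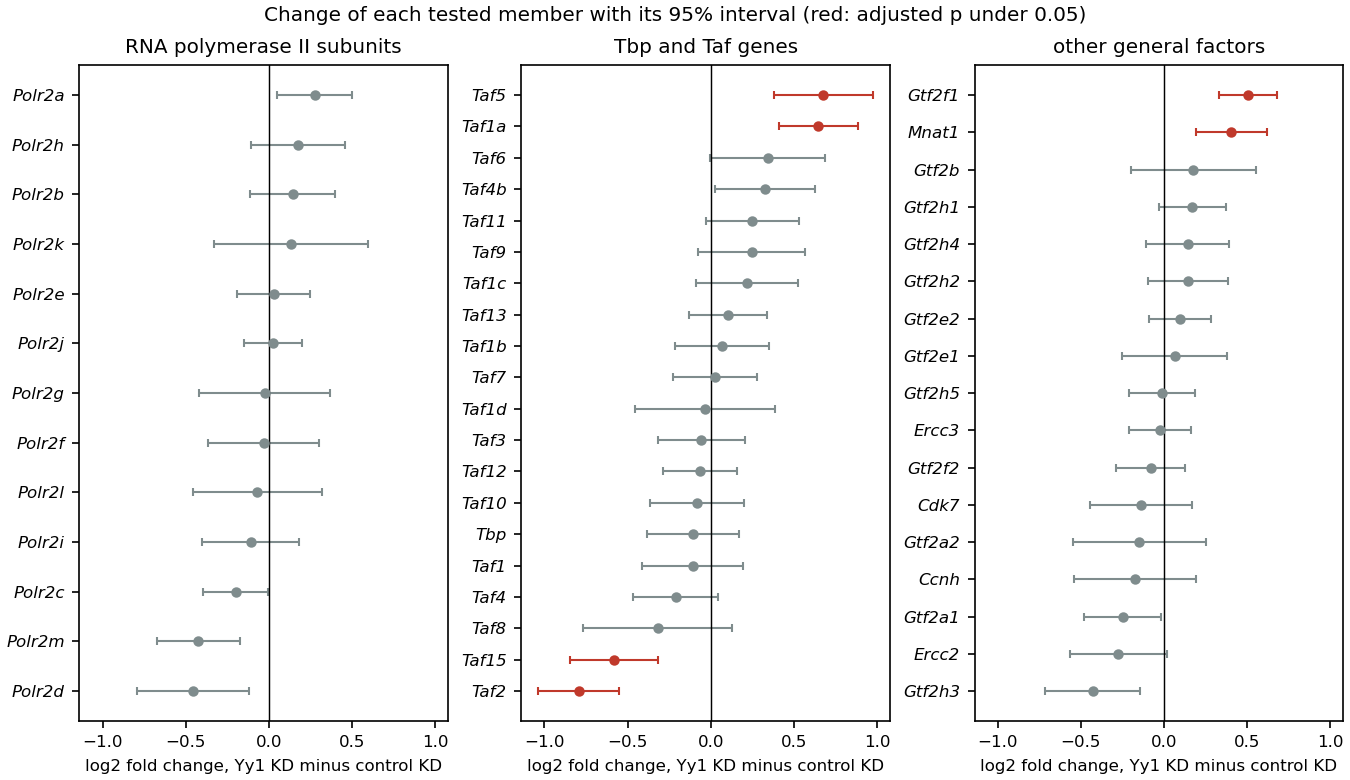
Log2 fold change (x axis, *Yy1* KD minus control KD, on log2(TPM + 1)) of each of the 50 members tested, with its 95% interval from limma, for the *Polr2* genes, the *Tbp* and *Taf* genes and the other general factors. The 6 called genes, in red, lie between -0.79 (*Taf2*) and 0.68 (*Taf5*), and none of them is a *Polr2* gene.

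The levels of the members spanned a wide range within each complex. In control KD morulae *Polr2b* and *Polr2a*, which encode the large catalytic subunits of RNA polymerase II, were at 202 ± 27.3 and 140.1 ± 14.7 TPM (SD, n = 3), and *Polr2g*, which encodes a subunit of the stalk, was at 27.1 ± 6.11 TPM (SD, n = 3). Among the *Tbp* and *Taf* genes, *Taf7*, whose product binds TAF1, was at 191 ± 15.0 TPM (SD, n = 3), and *Tbp* at 13.6 ± 1.02 TPM (SD, n = 3). Of the other factors both TFIIF subunits were highest, with *Gtf2f1* at 250.02 ± 9.34 TPM and *Gtf2f2* at 217 ± 15.2 TPM, and *Gtf2b* lowest of those tested, at 12.9 ± 1.89 TPM (SD, n = 3 each). The order of genes that differ in annotated exon length is less certain than the order of one gene over libraries. The exons annotated for *Tbp* cover 13576 nt, the longest of these members, and its 877 to 1966 read pairs per library are divided by all of them. The exons of *Taf1d* cover 8949 nt, which is 7.80 times its longest coding transcript, and 12 other genes overlap them.

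**Figure D2:**
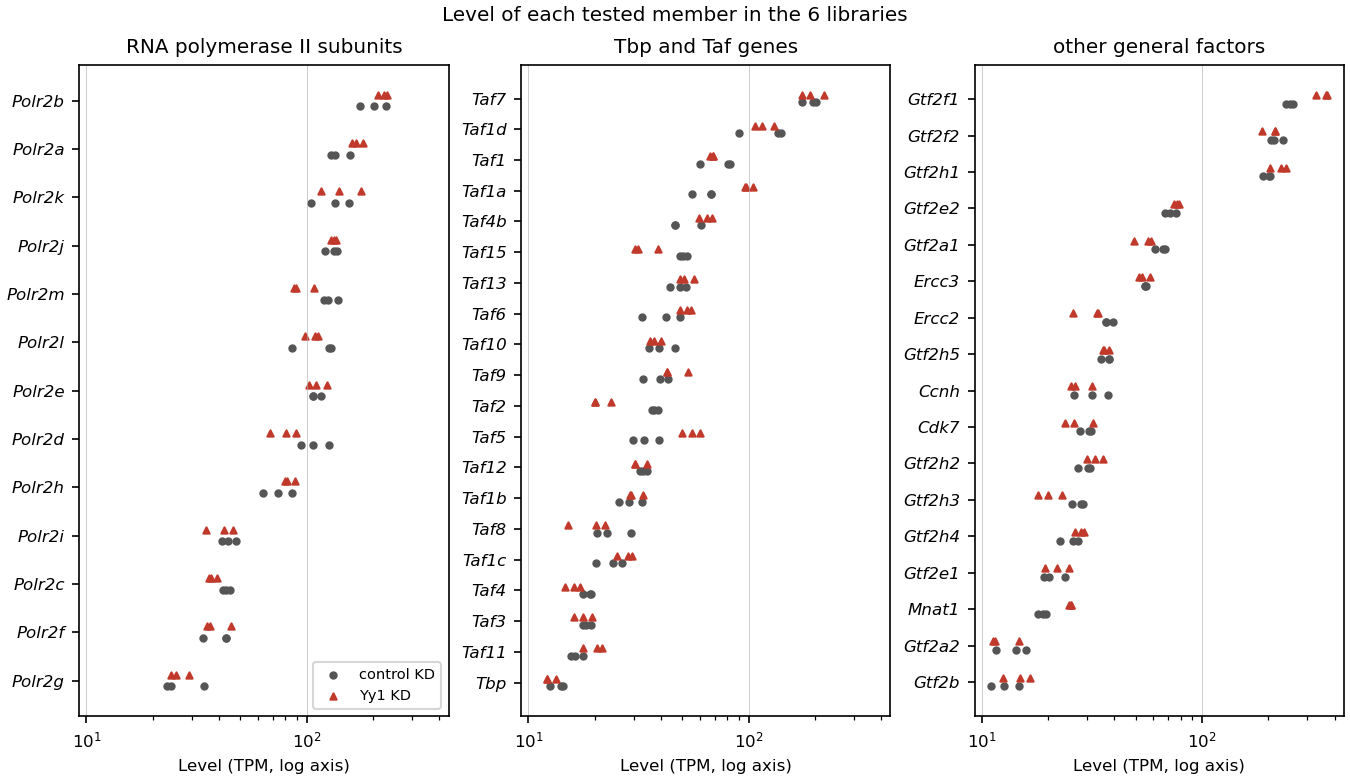
Level of each tested member (x axis, TPM on a log axis) in the 3 control KD libraries (grey circles) and the 3 *Yy1* KD libraries (red triangles), ordered by the control KD mean within each class. Single values run from 11.1 TPM (*Gtf2b*, control KD) to 369 TPM (*Gtf2f1*, *Yy1* KD), and for 35 of the 50 genes the circles and triangles overlap.

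*Taf2* encodes the TAF that touches DNA around the start site of the promoter. Its locus spans 55015131 to 55072152 of chromosome 15, minus strand (ENSMUSG00000037343.8, GRCm38, as mm10). Its level was 38.8, 36.5 and 37.1 TPM in control KD replicates 1 to 3 and 19.997, 23.8 and 19.96 TPM in *Yy1* KD replicates 1 to 3. The lowest control KD value was well above the highest *Yy1* KD value, and the mean fell to 56.7% of control (log2 fold change -0.79, standard error 0.10, limma adjusted p = 0.0130). *Taf15* (ENSMUSG00000020680.15, plus strand of chromosome 11, 83473086 to 83506743) was at 52.7, 48.6 and 50.2 TPM in control KD and at 31.6, 38.7 and 30.3 TPM in *Yy1* KD, with *Yy1* KD replicate 2 nearest to the controls. Its log2 fold change was -0.58 (standard error 0.11, limma adjusted p = 0.0350). Neither gene shares exonic sequence with another annotated gene.

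*Taf5*, which encodes a WD-repeat protein at the core of TFIID, went the other way. Its identifier is ENSMUSG00000025049.6, and its plus-strand locus spans 47067746 to 47083479 of chromosome 19. It was at 29.9, 33.3 and 39.4 TPM in control KD and at 55.4, 59.96 and 49.96 TPM in *Yy1* KD, so that all *Yy1* KD values were above all controls. The log2 fold change was 0.68 (standard error 0.13, limma adjusted p = 0.0322). It shares 16 bases of exon with a neighbouring gene. The start of *Taf5* carries the consensus of YY1 itself, GCCATNTT or AANATGGC on the other strand, from base 15 after the RefSeq start site, where it covers the annotated start codon, and the 30 bases around it, at chr19:47067751-47067780 of GRCm38.p6 on the plus strand, are shown because this was the one called member with that consensus (capitals mark it):
*Taf5*: ggctcagccgcAAGATGGCggcgctggcgg

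The rest of TFIID did not pass the test. *Tbp* was at 12.5, 14.02 and 14.4 TPM in control KD and 12.1, 12.2 and 13.4 TPM in *Yy1* KD (log2 fold change -0.11, 95% interval -0.39 to 0.17, limma adjusted p = 0.626). *Taf1*, which encodes the largest TAF, was at 81.9, 60.3 and 80.9 TPM in control KD and 69.1, 67.0 and 68.6 TPM in *Yy1* KD, values that overlap (log2 fold change -0.11, 95% interval -0.41 to 0.19). *Taf6*, which encodes a histone-fold TAF that pairs with TAF9, was at 48.6, 42.3 and 32.9 TPM in control KD and at 54.4, 48.8 and 52.7 TPM in *Yy1* KD, which barely separates the groups (log2 fold change 0.34, limma adjusted p = 0.216). *Taf6* shares 1185 of its 4476 exonic bases with *Ap4m1*, and *Tbp* shares 2582 of 13576 with *Pdcd2*. With *Tbp* and *Taf1* to *Taf13* taken alone, without *Taf15* and the RNA polymerase I genes, 2 of 15 genes tested were called, in opposite directions.

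Paralogs of TAFs that are known from germ cells were examined beside their common forms. *Taf4b*, which encodes a TAF4 paralog with a role in the ovary, was at 60.7, 46.5 and 46.5 TPM in control KD and at 59.4, 68.3 and 64.6 TPM in *Yy1* KD (log2 fold change 0.33, limma adjusted p = 0.175). *Taf4* was at 17.6, 19.1 and 19.2 TPM in control KD and at 16.1, 14.7 and 17.1 TPM in *Yy1* KD (log2 fold change -0.21, limma adjusted p = 0.294). The ratio of *Taf4b* to *Taf4* TPM was thus above 1 in every library, between 2.43 and 3.44 in control KD and between 3.70 and 4.64 in *Yy1* KD, and the groups did not overlap. The change in this ratio was not tested, since it was looked at after both genes' values were seen.

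*Taf9*, which shares 1564 of its 2120 exonic bases with *Ak6*, was at 43.1, 39.8 and 33.2 TPM in control KD and at 42.6, 53.0 and 42.6 TPM in *Yy1* KD (log2 fold change 0.25, limma adjusted p = 0.327). Its paralog *Taf9b* was one of the 2 members below the filter. It had 3 read pairs in each control KD library and 23, 8 and 11 read pairs in the *Yy1* KD libraries, or 0.184, 0.0920 and 0.127 TPM against 0.941, 0.461 and 0.703 TPM. The groups did not overlap, but without the filter on low values it was not called (limma adjusted p = 0.188). The other member below the filter, *Gtf2a1l*, the germ cell paralog of *Gtf2a1*, had between 0 and 15 read pairs per library and showed no order between the groups (1.53, 0 and 0.284 TPM in control KD, and 0.410, 0.482 and 0.107 TPM in *Yy1* KD).

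Of the genes named *Taf* that serve RNA polymerase I, 1 of 4 was called. *Taf1a* (ENSMUSG00000072258.10, plus strand of chromosome 1, 183388981 to 183410198) was at 67.2, 55.3 and 67.6 TPM in control KD and at 97.0, 96.3 and 104.8 TPM in *Yy1* KD. All *Yy1* KD values were higher, and the mean was 1.57 times that of control (log2 fold change 0.65, standard error 0.10, limma adjusted p = 0.0210). Its partner genes in SL1 gave overlapping values, with log2 fold changes of 0.07 for *Taf1b* (95% interval -0.22 to 0.35), 0.22 for *Taf1c* (-0.09 to 0.52) and -0.03 for *Taf1d* (-0.46 to 0.39). The interval of *Taf1d* was among the widest of all members.

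TFIIF, which escorts the polymerase to the promoter, has a pair of subunits, and the transcript of one rose. *Gtf2f1* (ENSMUSG00000002658.9, minus strand of chromosome 17, 57003405 to 57011288) was at 259, 240.5 and 250.4 TPM in control KD and at 367, 369 and 330.1 TPM in *Yy1* KD. The log2 fold change was 0.50 (standard error 0.07, limma adjusted p = 0.0178). *Gtf2f2* was at 234, 212 and 206 TPM in control KD and at 214, 215 and 187 TPM in *Yy1* KD, with overlapping groups (log2 fold change -0.08, 95% interval -0.29 to 0.13). Within a library the ratio of *Gtf2f1* to *Gtf2f2* was between 1.11 and 1.22 in control KD and between 1.72 and 1.76 in *Yy1* KD. This ratio, which no scaling of a library changes, was computed after both genes had been seen and was not tested.

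*Mnat1* encodes the assembly factor of the TFIIH kinase module and was the weakest call. Its plus-strand locus spans 73123717 to 73273988 of chromosome 12 (ENSMUSG00000021103.12). It was at 18.9, 18.1 and 19.6 TPM in control KD and at 25.4, 25.004 and 25.4 TPM in *Yy1* KD. The values were tight within each group and gave a log2 fold change of 0.40 (its standard error 0.09, limma adjusted p = 0.0499, just inside the threshold). The kinase and the cyclin did not pass. *Cdk7* was at 28.02, 31.4 and 30.8 TPM in control KD and at 23.8, 32.1 and 26.1 TPM in *Yy1* KD (log2 fold change -0.14, 95% interval -0.45 to 0.17), and *Ccnh* gave a log2 fold change of -0.17 (95% interval -0.54 to 0.19).

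None of the 7 genes of the TFIIH core was called by limma, with 1 of them, *Gtf2h3*, at an unadjusted p under 0.05. Of all 17353 genes tested, 4123 were under that unadjusted threshold. *Gtf2h3*, which encodes a subunit of the ring around the helicases, was at 28.9, 25.6 and 28.3 TPM in control KD and at 18.0, 23.1 and 19.9 TPM in *Yy1* KD, without overlap (log2 fold change -0.43, limma adjusted p = 0.0893). limma-voom on the recovered read pairs called it (adjusted p = 0.0373). *Ercc3*, the gene of the helicase that opens the promoter, was nearly constant, at 55.6, 55.3 and 54.8 TPM in control KD and at 58.0, 53.6 and 51.6 TPM in *Yy1* KD (log2 fold change -0.02, 95% interval -0.21 to 0.16). *Ercc2*, the gene of the other helicase, was at 36.6, 39.4 and 36.5 TPM in control KD and at 33.3, 25.9 and 33.8 TPM in *Yy1* KD (log2 fold change -0.28, limma adjusted p = 0.233), and 1780 of its exonic bases are shared with other genes.

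None of the 5 tested genes of TFIIA, TFIIB and TFIIE was called by limma or limma-voom, with 1 (*Gtf2a1*) at an unadjusted p under 0.05. An unadjusted p that low was reached by 4123 of all 17353 genes tested. *Gtf2a1*, which encodes the large TFIIA precursor, was at 61.0, 66.6 and 68.1 TPM in control KD and at 56.8, 49.0 and 58.7 TPM in *Yy1* KD. Its groups did not overlap (log2 fold change -0.25, limma adjusted p = 0.179). *Gtf2b*, the TFIIB gene, was at 11.1, 14.8 and 12.6 TPM in control KD and at 16.5, 14.9 and 12.5 TPM in *Yy1* KD (log2 fold change 0.18, 95% interval -0.20 to 0.55). *Gtf2e1* and *Gtf2e2* changed by 0.06 and 0.09 on the log2 scale, with intervals that include 0.

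**Figure D3:**
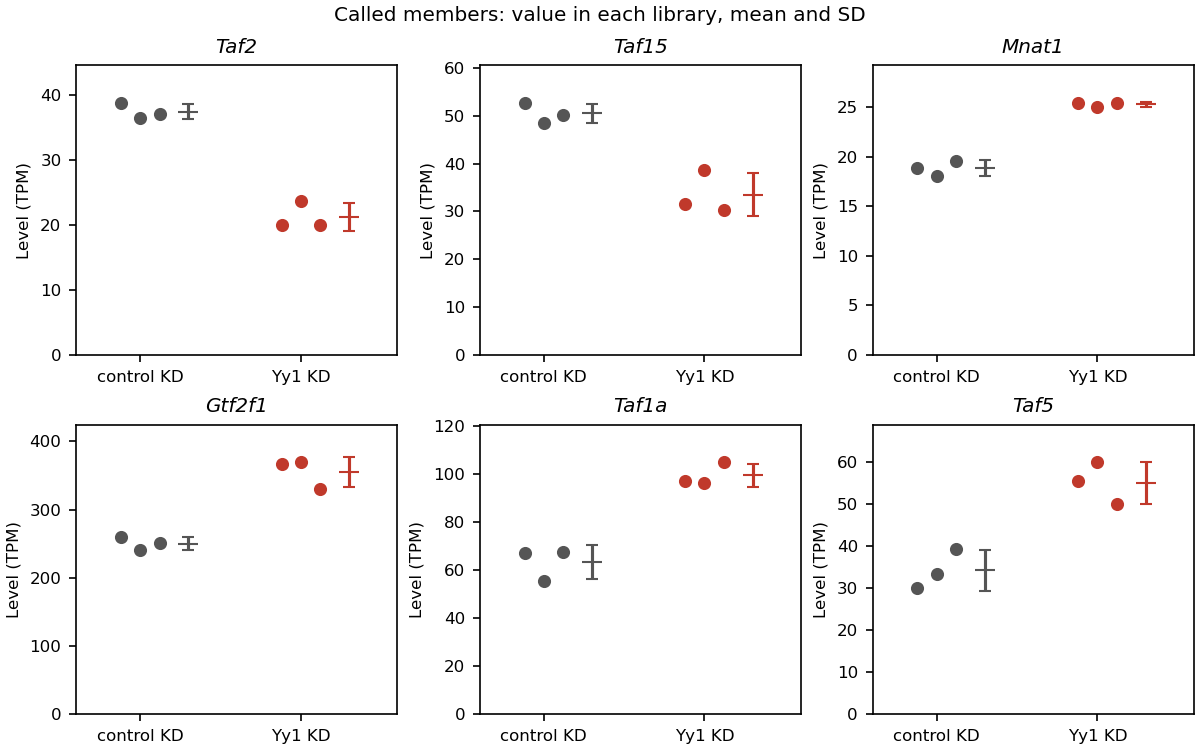
Level (y axis, TPM, from 0) of the 6 called members in each of the 3 control KD (grey) and 3 *Yy1* KD (red) libraries, with the mean and SD beside the points. *Taf2* and *Taf15* are lower in all 3 *Yy1* KD libraries than in any control, and *Mnat1*, *Gtf2f1*, *Taf1a* and *Taf5* are higher in all 3.

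Each of the 6 calls was lost when certain single libraries were left out. In 6 further fits, each without 1 library, the log2 fold changes of these genes kept their direction. With fewer libraries, these fits made between 75 and 418 calls over all genes, against 1061 in the main fit. *Taf2* was called in 3 of the 6, and lost without control KD replicate 1, 2 or 3 (limma adjusted p = 0.0582, 0.0524 and 0.0615), *Gtf2f1* was called only without *Yy1* KD replicate 3 (0.0391) and *Taf15* only without *Yy1* KD replicate 2 (0.0453). *Taf1a*, *Taf5* and *Mnat1* were called in none of the 6, with adjusted p from 0.0524 to 0.0703, from 0.0599 to 0.106 and from 0.114 to 0.135. For each of the 6 genes taken alone, a two-sided exact permutation test gives p = 0.1, the smallest that 3 libraries against 3 allow.

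The *Polr2* genes, which include *Polr2m* of an associated protein, gave no call in limma, with 4 of 13 genes at an unadjusted p under 0.05. Of all 17353 genes tested 4123 were under it, as were 1946 of the 5720 with a mean of at least 20 TPM. All 13 *Polr2* genes had such a mean, so this count is near the background. *Polr2a* was at 129, 157 and 134 TPM in control KD and at 179, 167 and 161 TPM in *Yy1* KD, so that all *Yy1* KD values were slightly higher (log2 fold change 0.27, 95% interval 0.05 to 0.50, limma adjusted p = 0.138). *Polr2b* overlapped between groups, at 228, 203 and 174 TPM against 230.1, 224 and 210.1 TPM (log2 fold change 0.14, 95% interval -0.12 to 0.40). The ratio of *Polr2a* to *Polr2b* was between 0.565 and 0.774 in control KD and between 0.747 and 0.779 in *Yy1* KD.

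*Polr2m* and *Polr2d* were lower in all *Yy1* KD libraries without passing the test. *Polr2m*, which encodes an associated protein that makes the polymerase depend on Mediator, was at 124, 138 and 119.8 TPM in control KD and at 107.7, 89.5 and 87.8 TPM in *Yy1* KD (log2 fold change -0.42, limma adjusted p = 0.0653). It was called by limma-voom on the recovered read pairs (adjusted p = 0.0308) and after TPM had been rescaled over genes of at least 200 nt (limma adjusted p = 0.0315). *Polr2d*, which encodes the partner of POLR2G in the stalk, was at 127, 106.8 and 94.4 TPM in control KD and at 80.3, 89.2 and 67.9 TPM in *Yy1* KD (log2 fold change -0.46, limma adjusted p = 0.111). *Polr2g* did not follow it (log2 fold change -0.02, 95% interval -0.42 to 0.37). *Polr2c*, whose product nucleates assembly together with that of *Polr2j*, was at 45.0, 41.5 and 42.8 TPM in control KD and at 36.9, 36.2 and 39.1 TPM in *Yy1* KD (log2 fold change -0.20, limma adjusted p = 0.195). It shares 953 of its 5256 exonic bases with *Dok4*.

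The 5 subunits that RNA polymerase II shares with RNA polymerases I and III, *Polr2e*, *Polr2f*, *Polr2h*, *Polr2k* and *Polr2l*, had overlapping groups in every case, and their log2 fold changes lay between -0.07 and 0.17. The widest interval was that of *Polr2k*, from -0.33 to 0.59, which is wide beside the sizes of the called changes. *Polr2k* has the shortest exons of all members, 624 nt, and between 360 and 866 read pairs per library.

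Genes that act with this machinery, and genes of RNA polymerases I and III with their factors, were taken from 5 lists. Of 82 genes tested, 10 were downregulated and 2 upregulated in *Yy1* KD. This was 14.6%, beside 6.11% of all genes (4.2% lower and 1.92% higher). A mean of at least 20 TPM was reached by 63 of the related genes. Of all genes with such a mean, 10.4% were called (6.85% lower and 3.55% higher). The difference between these shares was not tested. The median log2 fold change was -0.06 over the lists against -0.02 for all genes. None of 6 tested TBP relatives and TAF paralogs of other complexes was called by limma. At an unadjusted p under 0.05 was 1 of them, beside 4123 of all 17353 genes tested. Of 13 genes for assembly of RNA polymerase II and for phosphatases and readers of its tail, 2 were downregulated and 1 upregulated. *Gpn1*, a GTPase needed for nuclear import of the polymerase, was at 11.9, 11.7 and 12.2 TPM in control KD and at 3.95, 5.30 and 4.72 TPM in *Yy1* KD. Its log2 fold change of -1.20 (limma adjusted p = 0.0126, with a standard error of 0.15) was larger than that of any member, and it was called in 3 of the 6 fits without 1 library. *Rpap1*, which encodes a protein bound to the polymerase during assembly, was at 7.31, 7.53 and 8.33 TPM in control KD and at 3.35, 3.55 and 3.71 TPM in *Yy1* KD (log2 fold change -0.94, limma adjusted p = 0.0227). *Rprd1b*, which encodes a protein that binds the tail, was upregulated (log2 fold change 0.48, limma adjusted p = 0.0302).

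Of 33 genes for pausing and elongation, 4 were downregulated and 1 upregulated. The negative elongation factor NELF, which holds the paused polymerase, had *Nelfcd* (log2 fold change -0.56, limma adjusted p = 0.0316) and *Nelfa* (-0.36, adjusted p = 0.0499) called lower, while *Nelfb* was at 34.3, 43.5 and 36.4 TPM against 28.9, 26.8 and 23.9 TPM without being called (-0.50, limma adjusted p = 0.0650) and *Nelfe* gave 0.07 (limma adjusted p = 0.667). *Leo1*, of the PAF1 complex, and *Ell3*, an elongation factor, were lower, with log2 fold changes of -0.45 and -0.77 (limma adjusted p = 0.0305 and 0.0317). *Supt4a*, which encodes the small subunit of the elongation factor DSIF, was at 135, 125 and 121 TPM in control KD and at 184, 177 and 191 TPM in *Yy1* KD (0.53, limma adjusted p = 0.0151). Its partner *Supt5* gave 0.06 (limma adjusted p = 0.652). *Nelfcd*, *Nelfa*, *Ell3*, *Gpn1* and *Rprd1b* overlap other genes, with which their read pairs can be shared.

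In the list for RNA polymerase III and its factors 3 of 22 genes tested were called, all lower. *Gtf3c6*, a TFIIIC subunit gene, was at 44.2, 41.6 and 53.4 TPM in control KD and at 21.1, 23.3 and 19.7 TPM in *Yy1* KD (log2 fold change -1.08, limma adjusted p = 0.0114). This call held in each of the 6 fits without 1 library. *Gtf3c1*, which encodes the largest TFIIIC subunit, and *Polr1c*, of a subunit shared with RNA polymerase I, fell by 0.57 and 0.46 (limma adjusted p = 0.0336 and 0.0448). Of 8 RNA polymerase I genes, *Polr1b*, which encodes a large catalytic subunit, was lower (-0.39, limma adjusted p = 0.0242). Of these 12 genes *Supt4a* and *Gtf3c1* were called in 1 fit without 1 library, and the 8 besides these and *Gpn1* and *Gtf3c6* in none.

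**Figure D4:**
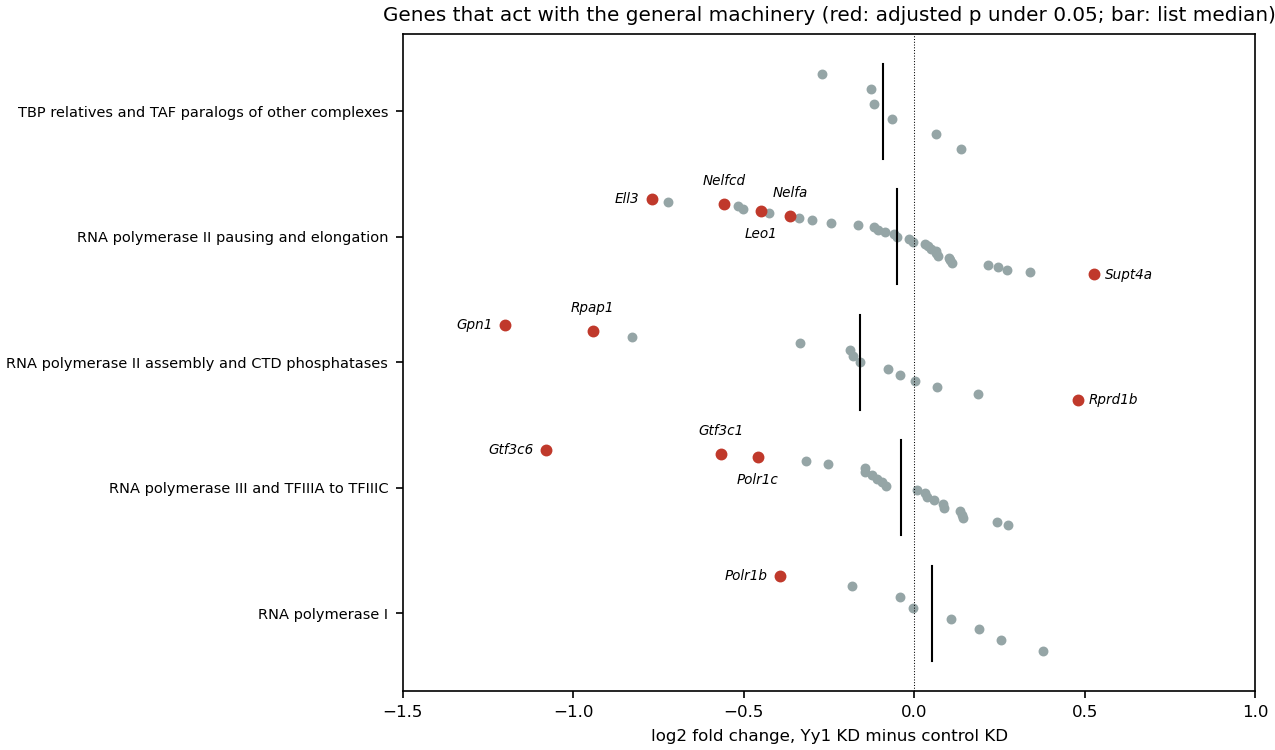
Log2 fold change (x axis, *Yy1* KD minus control KD) of the tested genes of 5 lists, 1 point per gene, with called genes in red and named. A bar marks the median of each list. The lists hold genes that act with the general machinery and genes of RNA polymerases I and III with their factors. *Gpn1*, *Gtf3c6* and *Rpap1* lie farthest to the left, and *Supt4a* and *Rprd1b* are the 2 called genes to the right of 0.

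The consensus of YY1, GCCATNTT, was searched on both strands in RefSeq promoters (GRCm38.p6), which reach from 250 bases before to 50 after each start site. A window was found for 43 of the 52 members, and 9 of these (20.9%) held it in at least 1 window. Counted by gene in the same way, 10.4% of the 9767 tested genes with a window held it. Counted by single window, the share was 6.05% of all 32851. Among all tested genes with a window, the share was 12.3% for those with a mean of at least 20 TPM, 27.7% for the 517 downregulated, 14.1% for the 192 upregulated and 9.33% for those not called. The genes were *Taf3*, *Taf4*, *Taf5*, *Taf6*, *Taf8*, *Taf9b*, *Gtf2b*, *Gtf2e1* and *Polr2i*, so that 6 of the 18 *Tbp* and *Taf* genes with a window carried it but 1 of 10 *Polr2* genes. No window was found for *Taf2*, and of the 5 called members with one, *Taf5* alone held the consensus, while 4 of 9 downregulated genes of the related lists did.

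Across or after a RefSeq start site, within the first 50 bases, 14 genes of the members and related lists read AANATGGC on their own strand. Any RefSeq start site of a gene counted. The one of *Ctdsp2* lies well inside the gene, with the site at chr10:126995621-126995650 and the gene from 126978717 to 126999975. Of the 13 that were tested, 10 had lower and 3 higher estimates in *Yy1* KD, with 4 called lower and 1 (*Taf5*) called higher. The estimates were lower in all 7 genes of the related lists, and lower in 3 and higher in 3 of the 6 tested members. Over all genes tested, with or without the site, 9167 of 17353 estimates were lower. Genes outside the members and related lists were not searched for this site across or after the start. These counts thus have no matching background, were not tested and show no effect of the site. The site of *Taf5* stands above, and those of the 6 further members and of the 4 called related genes are given to set their letters side by side (capitals mark the consensus).
Among the related genes *Gpn1* (chr5:31494759-31494788, plus strand), *Rpap1* (chr2:119787488-119787517, minus strand) and *Nelfa* (chr5:33936222-33936249, minus strand) fell. *Ell*, *Ctdsp2* and *Polr3e*, not shown, gave -0.72, -0.83 and -0.25 on the log2 scale without a call (limma adjusted p = 0.0587, 0.0652 and 0.191). Of the members, *Taf6* (chr5:138187192-138187221, minus strand) and *Gtf2b* (chr3:142765258-142765287, plus strand) gave 0.34 and 0.18 without a call. *Taf4* (chr2:179976631-179976660, minus strand), *Taf8* (chr17:47502254-47502283, minus strand) and *Taf3* (chr2:10048570-10048599, minus strand) gave -0.21, -0.32 and -0.06, also without a call, and *Taf9b* (chrX:106221124-106221153, minus strand) was below the filter.
*Gpn1*: gtggctgaggaAAGATGGCggcgcccgtgg
*Rpap1*: tccgcacggccAAGATGGCggcgcccaggc
*Nelfa*: ctgccgccgccAAGATGGCttccatgag
*Taf6*: ggggcggggccAAGATGGCgccgagcgccg
*Gtf2b*: gcggagccgcgAAGATGGCgtcgaccagcc
*Taf4*: ggcgaggaggaAAGATGGCggcgggctcgg
*Taf8*: tacgcaagagcAAGATGGCtgacacggcgg
*Taf3*: ggagcgagtccAAAATGGCggctctcaggc
*Taf9b*: catcaaagttcAAGATGGCtgaccaggagt
*Nelfa* and *Taf9b* each held a further match, not shown. That of *Nelfa* was GCCATGTT from base -41, counted from the same start site. That of *Taf9b* was AACATGGC from base -221 of a different start site. It lies inside the gene, downstream of the site shown (chrX:106220045-106220074, minus strand). *Gtf3c6*, which fell, held the consensus in both orientations, as *Nelfa* did, 24 bases before and 23 bases after its start site (chr10:40257718-40257747 and chr10:40257672-40257701, minus strand).
*Gtf3c6* before the start: agcctggcgtcGCCATCTTgctttctggcc
*Gtf3c6* after the start: tgcccgtatccAAAATGGCatccacagggg
The site covered an annotated start codon in *Taf5*, *Gpn1*, *Nelfa*, *Gtf2b*, *Taf4*, *Taf8* and *Taf9b*. A match to these letters is a description of the sequence, and binding of YY1 in morulae was not analysed here.

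The letters of the TATA box, TATAAA on the gene's own strand, stood somewhere in the window of 5 of the 43 members (11.6%). These were *Gtf2f1*, *Taf5*, *Polr2a*, *Polr2c* and *Taf13*. Counted by gene, the letters were also in 5.48% of all tested genes with a window and in 5.12% of those with a mean of at least 20 TPM. Counted by single window, the share was 8.32%. No distance from the start site was required, so a match does not show that a promoter has a TATA box.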

How the data were processed

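RNA-seq libraries were made with the SMART-Seq Stranded kit from 3 pools of control KD and 3 pools of *Yy1* KD morulae. Per the labels and the study's methods, the authors trimmed reads with Trim Galore (0.6.7), aligned them to mm10 with HISAT2 (2.2.1), removed ribosomal RNA reads with bedtools, assigned read pairs to GENCODE vM25 genes with featureCounts (2.0.1; unstranded, with a pair on more than 1 gene split between these, so that overlapping and antisense genes cannot be told apart) and deposited TPM. All columns were used. The authors tested counts, which were not analysed here, with edgeR. Here log2(TPM + 1) was tested in limma (3.58.1, R 4.3.3), a scale that understates changes of low genes, using a variance trend without a block, over 17353 genes with TPM of at least 1 in at least 3 libraries, two-sided, with Benjamini-Hochberg adjustment. Fold changes are on that scale, and intervals are 95%. Whether pools of one group came from separate experiments is not given in the sources used here, so p-values measure the spread between these libraries. Exon lengths and positions came from GENCODE vM21 (54312 of 55364 identifiers and all 52 members matched by version). TPM times exon length gave read pairs, and between 89.0% and 90.9% of values under 20 pairs in genes without overlap were whole within 0.02. Pools with the same replicate number did not deviate together (Pearson's r across genes -0.00388, 0.03 and 0.07).

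Per-library values are given for called members, for the best-known subunit of each complex (*Polr2a*, *Tbp*, *Taf1*, *Gtf2b*, *Ercc3*, *Cdk7*), for the pairs *Taf4* and *Taf4b*, *Taf9* and *Taf9b*, *Gtf2a1* and *Gtf2a1l*, and for up to 10 uncalled members with non-overlapping groups. Called genes of the related lists are named. Values of other genes were added after they were seen. The members and lists were chosen with earlier results of these data known. Alternatives were another pseudocount, other filters and scalings, limma-voom on read pairs, a replicate block, leaving out each library and, chosen after seeing the data, TPM rescaled over genes of at least 200 nt. The test was tested on simulated data. Python 3.11.15 was used for tables, and matplotlib 3.10.9 for plots.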

Additional observations from a re-analysis of the deposited data

How the results depend on the processing

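Of the members, 6 were called as reported, 8 with limma-voom on read pairs, 7 after rescaling over genes of at least 200 nt (chosen after seeing the data), 6 with median-ratio scaling or a mean TPM of at least 5, 5 with a pseudocount of 0.1 (without *Mnat1*) or with quantile normalization (without *Taf15*), and 3 with no filter on low values, where more genes were tested. Leaving out 1 library left between 0 and 2 member calls, between 75 and 418 calls over all genes, between 1 and 4 in the related lists, with fewer libraries in the fit. With replicate number as a block 0 members were called by limma (adjusted p = 0.0547 for *Taf2* and 0.0519 for *Taf1a*), 287 of all genes and 2 related genes. The numbers are shared by label only, and not every library correlated best with its own number. Over all genes 1061 were called as reported, 2089 with limma-voom and 347 without the filter, and in the related lists 12, 20 and 5. Downregulated genes made up 68.6% of all calls as reported, 58.8% with quantile normalization, 61.3% with limma-voom, 65.7% with median-ratio scaling, 72.2% over genes of at least 200 nt, 76.0% with the block, 77.8% with no filter and between 65.7% and 80.1% without 1 library. The median log2 fold change of the members stayed between -0.05 and 0.05 and that of *Yy1* between -3.45 and -3.26. None of the 22 genes followed, the 6 called members included, changed direction. The lowest levels, such as 3 read pairs of *Taf9b*, limit what can be said of rare members.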
